A study of Drosophila melanogaster with 4 samples.

Results

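The regions described here are the H1-enriched clusters on U, the sequence of FlyBase release 5 that joins scaffolds with no place on a chromosome. They were taken as the rows of the combined list that lie on U itself, without the separate sequence Uextra. There were 1175 of them among 15736 clusters in the list. The rule used no measured value beyond the authors' call of a region as enriched, so all values below describe called regions only. Each ChIP replicate also has its own list, which placed 148 of 2771 clusters on U in replicate 1 and 439 of 2922 in replicate 2. These served to check replication.

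The chromatin came from nuclei of adult heads of Oregon-R, a wild-type strain of Drosophila melanogaster (official name Oregon-R-modENCODE), described as mixed adults. The series holds 4 samples, which are 2 ChIP samples with an antibody to H1 and 2 input samples, 1 for each ChIP sample. All come from the same strain, stage and tissue, with no treatment and no second condition, and the labels do not say whether the replicates were separate collections of flies. Heads hold neurons, glia and several other cell types, and with no gene levels in the files the tissue could not be checked against markers.

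Linker histone H1 binds near the points at which DNA enters and exits a nucleosome and helps to fold nucleosome arrays into compact chromatin. In Drosophila it is abundant in heterochromatin, where it takes part in the silencing of transposons and other repeats. U collects much of the sequence that could not be assembled into chromosomes, which is commonly repeated. For that reason reads map to it less uniquely than to an arm, and a position on U gives no order along a chromosome. The label of U as rich in repeats was not checked, since no sequence of release 5 was used here and none is printed.

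Coverage of U, meaning the share of its 10.0 Mb that lies in clusters, differed widely between the replicates. Replicate 1 covered 2.48% of U, or 249.5 kb, and replicate 2 covered 8.89%, or 892.9 kb. The mean was 5.68% ± 4.53 (SD, n = 2 replicates), and replicate 2 covered 3.58 times as much of U. The combined list covered 23.5%, or 2.36 Mb. On the main arms 2L, 2R, 3L, 3R, X and 4 as a whole, replicate 1 covered more at 3.35% and replicate 2 less at 2.71%. U therefore lay below the arms in replicate 1, at 0.741 times their coverage, and above them in replicate 2, at 3.28 times. With the highest-scoring 50% of each list, replicate 1 turned to 1.07 times the arms. The mean difference between U and the arms of 2.65 percentage points ± 4.98 (SD, n = 2) gave p = 1 in an exact two-sided sign-flip test over the replicates, which cannot go below 0.5. Against the 6 heterochromatic sequences, heterochromatin scaffolds that are assigned to an arm or to Y, the ratio was steadier. The ratio stood at 0.719 for replicate 1, at 0.756 for replicate 2 and at 0.745 for the combined list (exact two-sided sign-flip test on the replicate difference, p = 0.5).

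Clusters on U made up 5.34% of the list of replicate 1, 15.0% of that of replicate 2 and 7.47% of the combined list. Uextra, a second sequence of unplaced scaffolds, had a cluster in none of the 3 lists. Whether reads were aligned to Uextra, or clusters called on it, was not determined. Of the remaining sequences, 3LHet and 3RHet were covered more than U in every list. The sequences 2LHet, XHet, YHet, X and 4 were covered less in every list, and 2RHet, 2L, 2R, 3L and 3R changed place with U between lists.

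Clusters were spread along nearly the whole of U, with a dense start and a thinner end. In 100-kb bins the combined list had a median coverage of 19.0%, from 0% to 62.4% over 100 bins. Bins 1 to 7 were covered to between 48.8% and 62.4%. The 5 most covered were bin 6 at 62.4%, bin 4 at 60.5%, bin 1 at 60.1%, bin 7 at 54.8% and bin 3 at 54.6%. In replicate 2 these bins had 31.8%, 27.1%, 35.5%, 30.4% and 22.0%, in the same order. In replicate 1 they had 11.3%, 4.50%, 14.8%, 5.46% and 7.83%. Bins 1 and 6 were the 2 most covered bins of each replicate, and neither replicate had all 5 among its own highest 5.

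A single bin held no combined cluster. It was bin 8, from 700001 to 800000, which was empty in both replicates too and lay inside the longest cluster-free gap of the combined list, from 694254 to 817084 (122831 bp). Whether reads could be aligned there was not determined. Bins without a cluster numbered 29 in replicate 1 and 7 in replicate 2, and 4 were shared.

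**Figure D1:**
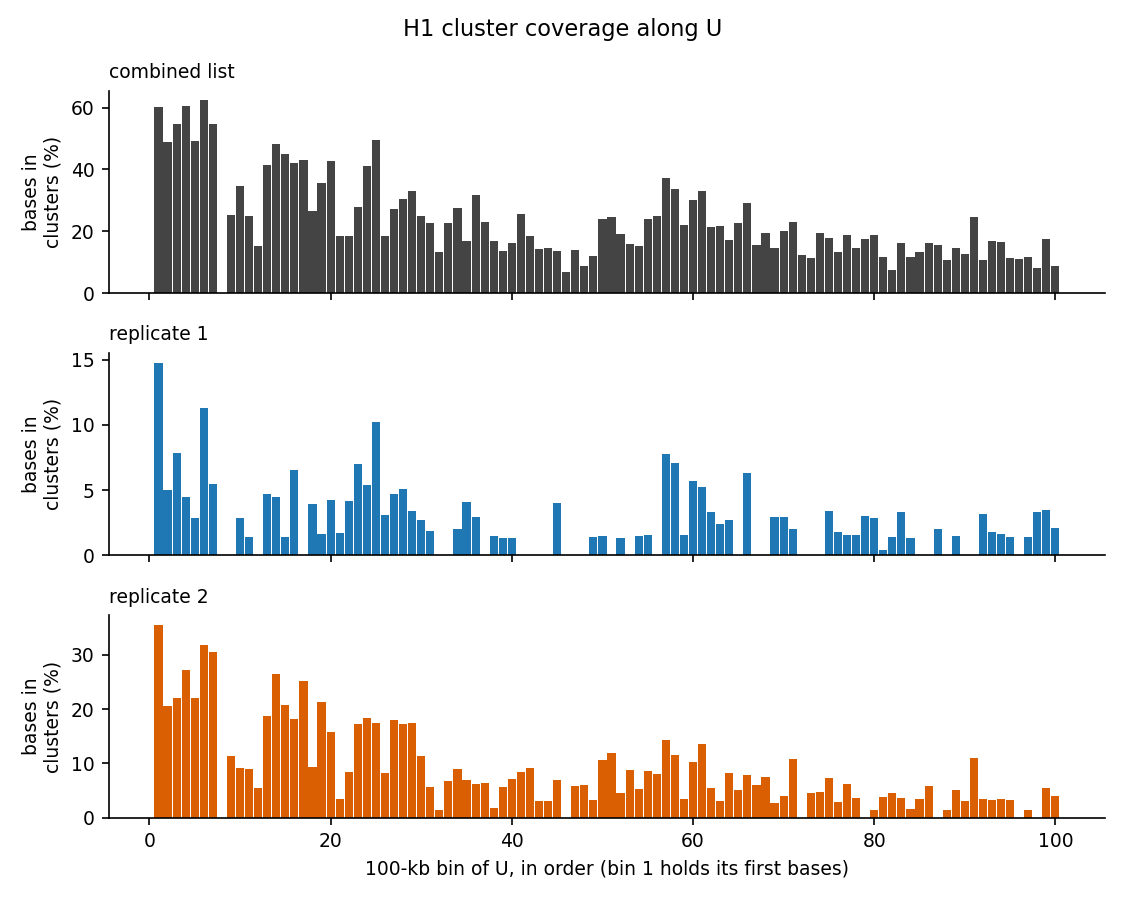
Percent of bases in H1 clusters (y axis) for each of 100 bins of 100 kb along U (x axis, bin number), in the combined list and each replicate, with a separate y scale for each. Bins 1 to 7 form a tall block in the combined list and in replicate 2, and bin 8 is empty in all 3 lists.

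By 1-Mb segment, the combined list covered 45.1% of segment 1, 36.5% of segment 2, 15.2% of segment 5, 24.7% of segment 6 and 13.7% of segment 10. Replicate 2 followed the same course, with 21%, 17.0%, 5.65%, 8.68% and 3.53% in those segments. In replicate 1 they had 5.46%, 2.83%, 0.691%, 2.65% and 1.84%. Coverage was higher in replicate 2 than in replicate 1 in all 10 segments, by 1.92 to 8.18 times, and in 90 of 100 bins, while replicate 1 was higher in 6.

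The bins of the replicates rose and fell together in part. Across the 100 bins, which share their libraries and are not independent, Spearman's rho was 0.47 and Pearson's r 0.65. Without the first 10 bins they were 0.37 and 0.47 over 90 bins. The rank of a bin along U was related to its coverage with rho of -0.65 in the combined list, -0.67 in replicate 2 and -0.28 in replicate 1, so replicate 1 showed the decline least. These correlations are descriptions with no test.

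**Figure D2:**
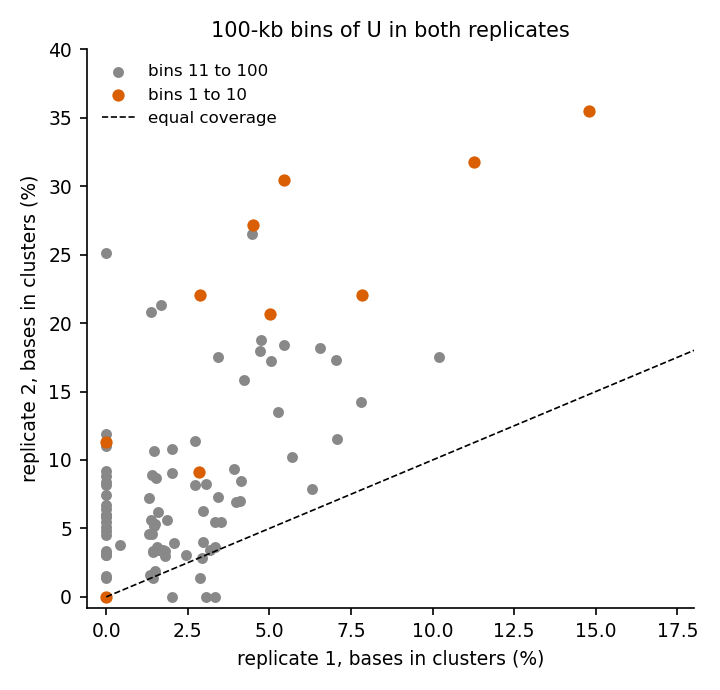
Percent of bases in clusters of replicate 1 (x axis) and replicate 2 (y axis) in each 100-kb bin of U, with bins 1 to 10 in orange and a dashed line of equal coverage. Most points lie above the line, and the 2 bins highest on both axes are bins 1 and 6, at 14.8% and 35.5% and at 11.3% and 31.8%.

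Clusters on U were somewhat longer at the median than those on the main arms in every list, and the longest lay near its start. The median length in the combined list was 1654 bp (quartiles 1169 and 2306.5 bp), beside 1512 bp on the main arms and 1790 bp on the heterochromatic sequences. It was 1551 bp in replicate 1 and 1762 bp in replicate 2, while the main arms had 1519 bp and 1529 bp. In the combined list 50 clusters of U (4.26%) reached 5 kb, while 1.75% did on the main arms and 6.40% on the heterochromatic sequences. On U 0 clusters of replicate 1 and 4 of replicate 2 (0.911%) did. The longest cluster in a 1-Mb segment went from 10127 bp in segment 1 to 3476 bp in segment 10.

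All of the 10 longest combined clusters began in the first 3 Mb, and 8 of them overlapped clusters of both replicates. The longest lay at 487080 to 497206 (10127 bp, 1.49-fold), where fold is 2 raised to the authors' score, a log2 value described further on. Replicate 2 covered 64.5% of it and replicate 1 covered 13.0%. The next, at 1660557 to 1670656 (10100 bp, 1.44-fold), was covered to 75.7% by replicate 2 and had no cluster of replicate 1. That at 617827 to 627136 (9310 bp, 1.46-fold) had 40.6% from replicate 2 and 15.0% from replicate 1. The fourth, at 316081 to 325241 (9161 bp, 1.5-fold), was the other one without replicate 1, and replicate 2 covered 14.5% of it.

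The remaining 6 were all met by both replicates. They were at 2871515 to 2880233 (8719 bp), 73706 to 82302 (8597 bp), 363148 to 371720 (8573 bp), 2696946 to 2705436 (8491 bp), 2352420 to 2360543 (8124 bp) and 392459 to 399827 (7369 bp). Replicate 2 covered from 31.5% to 82.7% of them and replicate 1 from 16.4% to 47.8%. At 2352420 to 2360543 alone did replicate 1 cover more, at 47.8% against 39.5%. All 10 had low folds, from 1.40 to 1.5.

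Neighbouring clusters of U lay 3245.5 bp apart at the median of the combined list, against 2397 bp on the main arms and 1811 bp on the heterochromatic sequences. In replicates 1 and 2 the median gap on U was 34380 bp and 9413.5 bp. On the main arms it was 23749 bp and 19567 bp, and on the heterochromatic sequences 18939.5 bp and 5148 bp. Gaps on U were thus wider than on the arms in replicate 1 and narrower in replicate 2. Of 1174 gaps on U in the combined list, 306 (26.1%) were 1 kb or shorter. This share was lower than the 29.8% on the main arms and the 35.4% on the heterochromatic sequences. Joining clusters over such gaps left 869 runs, of which 660 were single clusters and 18 spanned 10 kb or more. Scaffold boundaries within U were not used, so a gap or a run may span a join between scaffolds.

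The longest run, at 10464 to 47020, held 8 combined clusters over 36.6 kb. Clusters of the combined list filled 93.5% of it, those of replicate 2 50.7% and those of replicate 1 19.2%. The others of the 5 longest spanned 17.9 to 20.8 kb. They lay at 201368 to 222169, 390511 to 408965, 612690 to 631121 and 3393188 to 3411095. Replicate 2 filled 32.9% to 51.7% of these and replicate 1 13.1% to 18.2%.

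The median score was higher on U than on the main arms or the heterochromatic sequences, each pooled, in every list. Among single sequences, XHet and YHet had higher medians than U in all 3 lists, X in replicate 1 and 2LHet in replicate 2. Most of these rest on few clusters. XHet had 19 in the combined list, 1 in replicate 1 and 2 in replicate 2, and YHet had 43, 4 and 10. For 2LHet there were 9 in replicate 2, and for X 133 in replicate 1. The score is the authors' own value for each cluster. It was read, from its values, as log2 of ChIP over input reads. On U its median stood at 0.66 (1.58-fold) for the combined list and at 0.81 (1.75-fold) for each replicate. It exceeded that of the main arms by 0.23, 0.15 and 0.21 and that of the heterochromatic sequences by 0.15, 0.08 and 0.12, in the same order, on the log2 scale. The 90th percentile of U was 2.63-fold in the combined list and that of the main arms 1.44-fold. Clusters of 1 library are not replicates, so these differences have no test. They hold for regions that were called as enriched, and how the calling limits scores on each sequence is unknown.

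**Figure D3:**
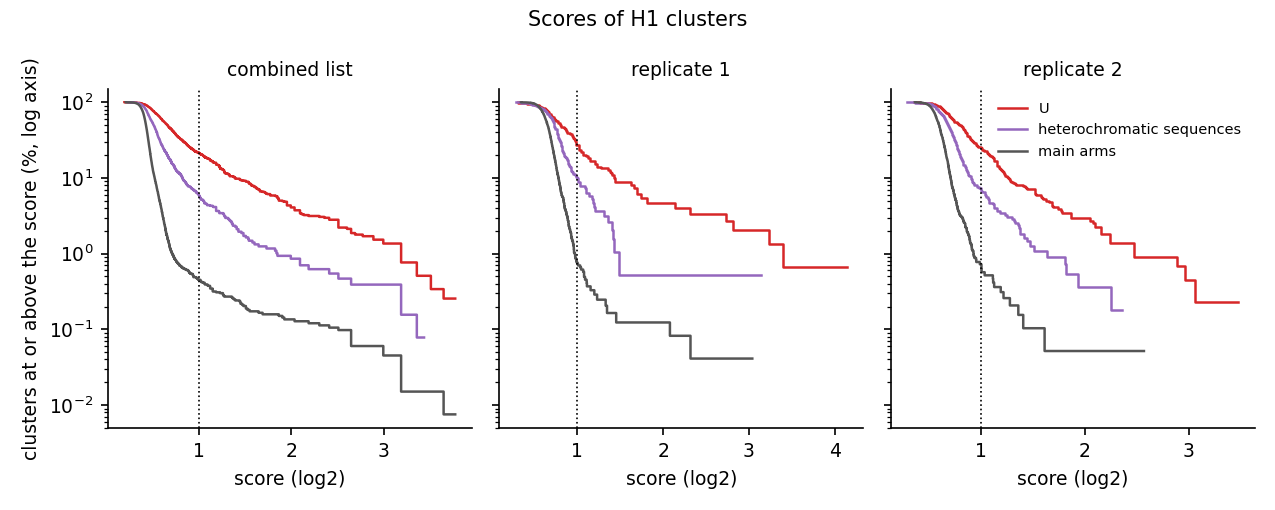
Percent of clusters (y axis, log scale) at or above a given score (x axis, log2) on U, the heterochromatic sequences and the main arms, for each list, with a dotted line at a score of 1. The curve of U lies above the others through the tail in all 3 panels, and at the dotted line U stands at 21.6%, 27.7% and 25.3% in the combined list, replicate 1 and replicate 2.

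At least 2-fold enrichment, a score of 1 or more, was given to 254 of the 1175 clusters of U (21.6%). The count was 99 with combined clusters under 1301 bp left out and 162 with reduced input counts of 5 or less, explained further on, left out. Over all sequences 2.50% of combined clusters reached it. U thus held 64.6% of the 393 such clusters in the list, although it has 7.47% of all clusters. In the replicates 41 of 148 (27.7%) and 111 of 439 (25.3%) clusters on U reached it, beside 10.4% and 7.08% on the heterochromatic sequences and 0.740% and 0.725% on the main arms. At 4-fold or more there were 48 clusters on U (4.09%), where 0.489% of all combined clusters were.

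High scores on U went with low divisors of the score ratio. In nearly every score, 2 to that power equals a ratio of whole numbers times 1 constant per list, and the divisor in lowest terms is used here as a reduced input count. It can be lower than the true count where the numbers share a factor, so it is a relative measure and not a count from the authors. On U it was 42.9 per kb at the median of the combined list. It was 78.2 per kb on the heterochromatic sequences and 143 per kb on the main arms. In replicate 1 the values were 25.3 on U and 61.5 on the main arms, and in replicate 2 29.8 and 74.2. The ratio of U to the arms was 0.301, 0.412 and 0.401 in the 3 lists.

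Within U the score fell as the reduced input count rose. Part of this, and of each comparison by this count below, is built in, since the count is a divisor of the score. A count of 1, for example, allows only whole-number ratios times the constant. The 122 combined clusters with a count of 1 to 5 had a median fold of 3.53, the 172 with 6 to 20 had 2.14, the 193 with 21 to 50 had 1.82, the 235 with 51 to 100 had 1.60 and the 452 above 100 had 1.43. Replicate 1 went from 3.23 to 1.51 and replicate 2 from 2.22 to 1.58 over the same classes. Spearman's rho of score with reduced input count per kb, which is partly built in since the count is a divisor of the score, came to -0.75 on U and -0.32 on the main arms in the combined list. Among the 254 clusters at 2-fold or more, the median reduced count was 9, or 6.96 per kb, where the other U clusters had 95 and 56.0 per kb. Numerators, which stand for ChIP reads, were lower too, at 17.0 and 78.5 per kb. Of the 48 clusters at 4-fold or more, 47 had a reduced input count of 5 or less. The part of low input in the high scores was not tested.

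**Figure D4:**
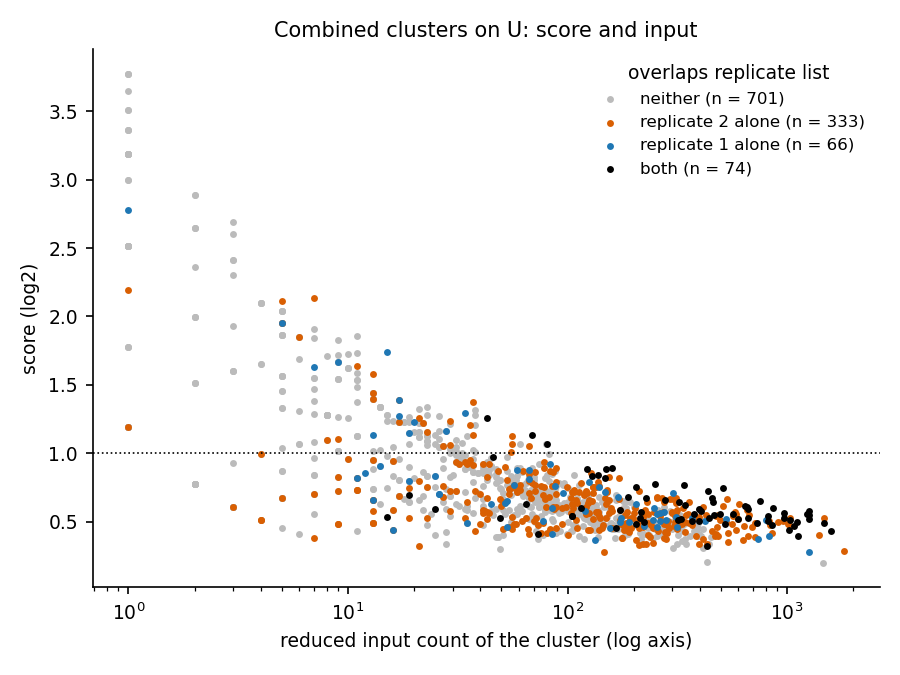
Score (y axis, log2) against reduced input count (x axis, log scale) for the combined clusters on U whose score gave a whole ratio, coloured by the replicate lists they overlap, with a dotted line at a score of 1. Scores fan out to the left, where counts are small and most points overlap neither replicate, and clusters that overlap both lie mostly to the right and below the line.

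The 10 highest-scoring combined clusters on U were short and were met by neither replicate list. The highest score, 13.7-fold, was shared by clusters at 3777470 to 3778525, 6423654 to 6424662 and 7061748 to 7063482, each a ratio of 12 to 1 in lowest terms. That at 6058130 to 6059204 (12.5-fold) was 11 to 1. Those at 7301400 to 7302563 and 9168374 to 9169402 (11.4-fold) were 10 to 1. At 1601516 to 1602591, 4381396 to 4382397 and 8381467 to 8382486 (10.3-fold) the ratio was 9 to 1, and at 535443 to 536443 (9.12-fold) it was 8 to 1. That last place was a tie of 7 clusters with the same score, all met by neither replicate, and the first along U is named. They lay in 10 different bins. Apart from that at 7061748 (1735 bp) they measured at most 1164 bp, under the shortest replicate cluster of 1301 bp.

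The highest clusters of each replicate, named after their values were seen, lay at other places. Replicate 1 gave 17.6-fold (15 to 1) at 5748053 to 5749995. Replicate 2 overlapped that cluster by 440 bp, with one of 1.75-fold at 5749556 to 5751466, and the combined list gave the stretch 1.5-fold. The highest of replicate 2 was 11.1-fold (10 to 1) at 7200015 to 7201332, with no cluster of replicate 1 and 4.56-fold in the combined list. Of the 5 highest of each replicate, the cluster at 5748053 was the only one that overlapped the other replicate.

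High scores were more frequent toward the end of U, though not in a steady course. In the combined list 9.94% of clusters reached 2-fold in segment 1, the first 1 Mb, 7.65% in segment 2, 24.4% in segment 5, 18% in segment 6 and 51.7% in segment 10. Coverage was higher in segment 6 than in segment 5. Between segments 1 and 10 replicate 1 went from 9.68% (3 of 31) to 63.6% (7 of 11) and replicate 2 from 4 of 91 clusters to 66.7% (14 of 21). Replicate 1 had none in segments 2 (0 of 18) and 5 (0 of 4). Between the same segments the median reduced input count fell from 70.8 to 13.0 per kb in the combined list, from 32.8 to 4.00 in replicate 1 and from 45.5 to 18.7 in replicate 2. In replicate 1 it was highest in segment 7, at 67.3 per kb. The median length of the combined clusters was 1878 bp in segment 1 and 1488 bp in segment 10. How much of the course along U goes with input was not tested.

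A small set of U clusters had the opposite profile, with dense input and low scores. This set was chosen after its values were seen, as the 22 combined clusters with a reduced input count per kb above the 99th percentile of the main arms (215 per kb). They were 1.87% of the clusters of U, where the cut by definition leaves the top percent of main-arm clusters above it. Their low scores are partly built in, since the count is a divisor of the score. Their folds ran from 1.15 to 1.48. The densest was at 1088875 to 1090736, with 781 per kb and 1.15-fold, the lowest score on U. Next were 6333509 to 6336807 (550 per kb, 1.22-fold) and 6109036 to 6111435 (524 per kb, 1.21-fold). Of the 22, 15 overlapped a replicate cluster and 5 overlapped both, where 40.3% and 6.38% of all combined clusters on U did. The 5 include 5684407 to 5688105 and 6938940 to 6942218, which hold 2 of the stretches described at the end.

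Nearly every replicate cluster on U overlapped the combined list, as on the other sequences, while the replicates shared fewer with each other. In replicate 1, 68 of 148 clusters (45.9%, with a 95% Wilson interval of 38.1 to 54.0) overlapped replicate 2 by at least 1 bp. Over all sequences 18.3% of replicate 1 clusters did, on the main arms 13.8% (12.5 to 15.2) did and on the heterochromatic sequences 54.7% (47.6 to 61.6) did. In the other direction 71 of 439 (16.2%, 13.0 to 19.9) overlapped, where 17.7% did over all sequences. The share of replicate 1 was thus above that over all sequences. It was lower than that of the heterochromatic sequences, but the intervals of these 2 shares overlapped. The share of replicate 2 was near the background. Replicate 2 had the larger covered sequence on U to be met. Both lists had 94.8 kb in common, which is 38% of the bases of replicate 1, 10.6% of those of replicate 2 and 9.05% of those in either. On the main arms the shared bases were 5.10% of either and on the heterochromatic sequences 9.43%. The combined list, which was made from the same replicates and is no independent check, overlapped 145 of the 148 (98.0%) and 420 of the 439 (95.7%). For replicates 1 and 2 the shares were 93.5% and 97.3% on the main arms. They were 98.4% and 97.6% on the heterochromatic sequences.

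Clusters seen in both replicates were longer and had lower scores and denser input than the rest. In replicate 1 the median length and score were 1643.5 bp and 0.74 for the 68 shared clusters and 1484.5 bp and 0.94 for the 80 unshared ones. In replicate 2 the 71 shared clusters had 1991 bp and 0.70, and the 368 unshared ones 1723 bp and 0.83. Median reduced input counts were 35.4 and 17.2 per kb for shared and unshared clusters of replicate 1 and 47.0 and 27.0 per kb in replicate 2. A longer cluster has more room to overlap, and its part was not tested. Across the 68 pairs, the scores of the replicates were related with Spearman's rho of 0.74 and Pearson's r of 0.44, a description over clusters of the same libraries.

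Of the 1175 combined clusters, 75 (6.38%, 95% Wilson interval 5.12 to 7.93) overlapped clusters of both replicates, where 3.57% of all combined clusters and 8.51% of those on the heterochromatic sequences did. A further 66 (5.62%) overlapped replicate 1 alone, 333 (28.3%) replicate 2 alone and 701 (59.7%) neither. On the main arms these shares were 14.1%, 10.9% and 72.1%, and on the heterochromatic sequences 5.31%, 30.1% and 56.1%. The share that overlapped both was 12.9% in segment 1 and 16.7% in segment 3, and from 1.15% to 5.98% in the other 8. It also rose with length, from 0 of 391 clusters below 1301 bp, which allows a share of up to 0.767% (3 counts), to 35 of 85 (41.2%) at 4 kb and over. Of those at 4 kb and over, 98.8% met at least 1 replicate. Among the 254 clusters at 2-fold or more, 42 (16.5%) met at least 1 replicate and 3 met both, and among the other 921 clusters 46.9% met at least 1.

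**Figure D5:**
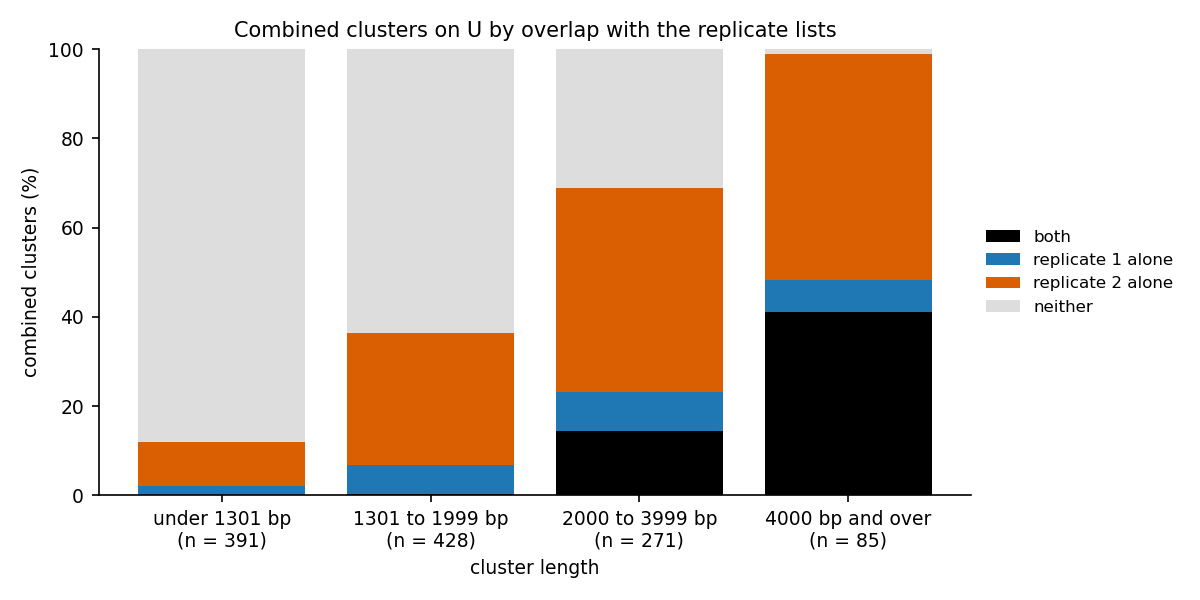
Percent of combined clusters on U (y axis) that overlap both replicate lists, 1 of them or neither, in 4 classes of cluster length (x axis, with n). The share with both is 0% below 1301 bp and 41.2% at 4 kb and over, and the share with neither falls with length.

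The stretches of U where clusters of both replicates and of the combined list coincide made up a small part of its length. With a minimum of 200 bp there were 69, of 209 to 3036 bp (median 1432 bp), and they added up to 94.4 kb or 0.940% of U. Bases shared by both replicates, with no minimum and without regard to the combined list, came to 94.8 kb on the 10.0 Mb of U. They came to 353.9 kb on the 120.4 Mb of the main arms and 121.6 kb on the 9.28 Mb of the heterochromatic sequences. They lay in 40 of the 100-kb bins. Segments 1 and 3 held 20 each, segment 2 held 8, and the other segments from 1 to 5. Behind them, the clusters had median folds of 1.67 (replicate 1), 1.63 (replicate 2) and 1.49 (combined list).

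The longest such stretch was at 66996 to 70031 (3036 bp), where replicate 1 gave 1.74-fold, replicate 2 1.64-fold and the combined list 1.60-fold. The second was at 5684707 to 5687424 (2718 bp), with 1.49, 1.36 and 1.38. Its combined cluster had dense input, at 291 per kb. The third, at 4469410 to 4471940 (2531 bp), had 1.25, 1.45 and 1.36, and it was the sole stretch in segment 5.

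Of the next 7, the stretch at 522783 to 524895 (2113 bp) had the highest folds in replicate 2 and the combined list, with 1.83 for replicate 1, 1.94 for replicate 2 and 1.68 for the combined list. The stretch at 683658 to 685759 (2102 bp) had 1.89, 1.73 and 1.59 and lay just before the empty bin. The others in segment 1 were at 43037 to 45348 (2312 bp), 78275 to 80555 (2281 bp) and 545320 to 547387 (2068 bp), with folds of 1.51 to 1.75 in replicate 1 and 1.59 to 1.65 in replicate 2. Those at 9957508 to 9959590 (2083 bp) and 6939048 to 6941065 (2018 bp) stood in the second 5 Mb, with 1.44 and 1.37 as the folds of replicate 1, beside 1.59 and 1.34 as those of replicate 2. The latter again had dense input, at 311 per kb in its combined cluster.

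Only 3 of the 69 stretches had at least 2-fold enrichment in all 3 lists, a set named after its values were seen. They were at 2965673 to 2966981 (1309 bp), with 2.35-fold for replicate 1, 2.22-fold for replicate 2 and 2.20-fold for the combined list, at 6593124 to 6594613 (1490 bp), with 2.35, 2.26 and 2.10, and at 7536520 to 7538008 (1489 bp), with 2.64, 2.33 and 2.39. Their reduced input counts were 69, 81 and 43 in the combined list but 1, 1 and 4 in replicate 1 and 1, 31 and 21 in replicate 2, where shared factors may have cancelled. None of the 10 highest combined scores was among them.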

How the data were processed

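H1 ChIP-seq was done on 2 ChIP samples, each with an input. The authors deposited a list of enriched regions for each ChIP replicate and 1 combined list. The submitters' processing notes name Bowtie 0.12.7. Coordinates are FlyBase release 5, per the file headers, 1-based. The sources used here do not give the caller, its threshold, how the lists were combined or how reads with several matches were treated. The authors gave each region a score with no stated unit, taken here as log2 of ChIP over input as deposited. That reading rests on the values: with divisors up to 2000 and a tolerance of 1e-12, 2 to its power was a whole-number ratio times 1 constant for 99.9% of combined scores (1174 of 1175 on U). The constants were 1.17, 1.11 and 1.14 in replicates 1 and 2 and the combined list. In each list the constant was taken with which numerators and divisors were most equally often divisible by 2, 3 and 5. For 2 these shares were 33.5% and 33.0% in the combined list. Scores were compared within a list only, and depth is unknown.

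Overlap, coverage, bins and stretches were computed in Python 3.11.15 with pandas 2.3.3, scipy 1.17.1 and numpy 2.4.6, and tested on simulated data. Overlap needs 1 bp. Bins start at base 1 of U, and an end piece of 49037 bp with 2 combined clusters was left out. Wilson intervals are at 95% and cover counting error only. Replicates gave exact sign-flip tests of U coverage, and p-values measure only the spread between these samples, which may be technical. Coverage is over all bases, whether or not reads can align there. Regions named are the 10 highest-scoring and 10 longest combined clusters of U, its 5 most covered bins, bins with no cluster and the 10 longest stretches, and the longest runs, the highest clusters of each replicate, those with dense input and the stretches at 2-fold were named after their values were seen. The members, lists and rules were chosen with earlier results of these data known. The reference table is of release 6 and was not used.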

Additional observations from a re-analysis of the deposited data

How the results depend on the processing

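Of 49 alternative values, 39 planned and 10 chosen after seeing the data, 17 stayed within the error of the main value or, for a count, within 1.5 times. The other 32 had moved, values without an error by any change. For means of the replicates the error was the SD of the same 2 replicates. Leaving out 1 replicate therefore could not count as moved, whatever the values. That error was also wide: a ratio of 0.738 against the heterochromatic sequences counted as unmoved beside 2.01 against the main arms. Without 1 replicate, coverage of U ran from 2.48% to 8.89% and its ratio to the main arms from 0.741 to 3.28, on opposite sides of 1.

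With the highest-scoring 50% of each list, which keeps 1065 of 1175 combined clusters of U and fewer of the arms, the ratio to the arms became 4.03 (2.01 as the mean of replicates) and 2.32 (1.16 in the combined list). In replicate 1 alone it went from 0.741 to 1.07 and so changed sides of 1. Combined coverage was 21.3%, the median gap 3966.5 bp, rho between bins 0.41, the shares of replicate 1 and 2 clusters overlapping 35.8% and 10.6%, shared bases 6.30%, combined clusters in both replicates 3.85% and stretches 39. With combined clusters restricted to 1301 bp and over, the shortest of the replicates, coverage was 19.2%, the median length 1964.5 bp, the gap 5028 bp, the score difference from the arms 0.18, clusters at 2-fold 99 and those in both replicates 9.57%. Leaving out reduced input counts up to 5, the score difference was 0.21 in the combined list and 162 clusters were at 2-fold. This filter can also remove clusters whose count was lowered by shared factors. At a score of 1.5 or more there were 108.

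With 50% of the cluster to be covered, replicate shares were 37.8% and 10.3%, and 2.89% of combined clusters had both. With 50% of both clusters they were 27.7% and 9.34%. The 10% of bins most covered held, as the mean of replicates, 36.7% of covered bases with bins of 50 kb and 27.7% with bins of 250 kb, beside 31.7% with 100 kb, and rho was 0.40 and 0.62. In the combined list the ratio of coverage was 1.01 against the large autosomal arms and 0.745 against the heterochromatic sequences. Without the first 1 Mb, combined coverage was 21.1% and shared bases 7.80%.

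No paired analysis was possible because the inputs have no list of their own and the ChIP samples form 1 group, so no result comes from a fit. The depth of the libraries is unknown, so its limit on the scores was not measured.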
